A study of Drosophila melanogaster with 6 samples.

Results

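The DNA replication machinery is the set of proteins that marks replication origins, loads and starts the helicase, copies both strands and supplies deoxynucleotides. A set of 42 genes was chosen by symbol, by a rule that uses no measured value, and 21 of the 42 (50%) have a row in the authors' deposited comparison of tumor with control, which lists 6156 of 9384 tested genes. RNA was sequenced from material labelled as the Drosophila salivary gland imaginal ring, a ring of diploid progenitor cells where the larval gland meets its duct, in 3 control and 3 tumor samples. The control values go against ring cells alone. Markers of salivary gland secretory cells summed by estimate to 272858 CPM (counts per 1000000 reads) and fat body markers to 193772 CPM. The markers taken for imaginal progenitors summed to 103 CPM. The former lists include abundant secreted and storage protein genes and the latter holds regulatory genes, so these sums give no ratio of cells. In tumor, hemocyte (blood cell), fat body and tracheal markers summed by estimate to 1697, 1616 and 790 CPM, and progenitor markers to 402 CPM. With the same limit, tumor values do not show ring cells alone either. Controls had the genotype Actts>GFP, an actin driver with a green fluorescent protein, and carry the stage label of the last larval instar. Tumors had the genotype Actts>GFP+NICD, which adds the intracellular domain of Notch, and their label names 7 days spent at 18 °C and a further 7 days at 29 °C. Both groups carry the same driver, held in check by the heat-sensitive repressor Gal80ts. The actin driver is not restricted to the imaginal ring. No such schedule is given for controls, so genotype, age and temperature cannot be told apart.

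In most eukaryotes, replication is prepared in G1 phase, when the origin recognition complex, Cdc6 and Cdt1 load the MCM helicase onto DNA. In S phase the Cdc7 kinase with Dbf4, Mcm10, Cdc45 and the GINS complex switch that helicase on, and primase, the polymerases, the clamp PCNA and its loader copy the strands. In fly larvae many, but not all, of these proteins serve both the mitotic cycles of diploid imaginal cells and the endocycles that make salivary gland secretory cells polyploid. Many of their genes are transcribed under E2F and DREF, so their transcripts often rise and fall with S phase.

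The values are those of the authors' own test, which gives 1 log2 fold change (tumor against control), 1 mean level and 1 adjusted p per gene. No value per sample was used here, so fold changes stand without SD, SE or n, overlap between the groups cannot be shown, and the depth per library is unknown. The labels do not say whether samples came from separate animals, and the p-values then measure only how these samples vary, which may be technical variation. A gene without a row was either tested and not called at an adjusted p of 0.05, or not tested, and these cannot be told apart. The column names are those of a test against a minimum fold change. If that test was used, a gene not called may still differ, by less than that minimum. The smallest log2 fold change of any listed gene was 0.41 in size. In a bulk sample, fewer cells of a type and less RNA per cell cannot be told apart either.

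On the authors' scaling, replication genes were divided in direction and their changes were small. With the listed genes alone brought to equal totals, 20 of the 21 would be higher, a shift that leaves out all tested genes without a row. By the authors' deposited table, 14 of the 42 genes (33.3%) fell and 7 (16.7%) rose, beside 31.6% and 34.0% of all tested genes in the same directions. The share that fell is thus near that of all tested genes, the share that rose is below it, and the share listed, 50%, is below the 65.6% of all tested genes. These differences in share were not tested. The directions depend on the scaling between groups: on the authors' scale the estimated levels of all listed genes sum to 1224976 CPM in control, more than a plain CPM can reach, and to 351471 CPM in tumor. Setting these sums equal, an alternative chosen after the data were examined, adds 1.80 to every log2 fold change, so that 20 of the 21 replication genes are higher and 1 (Cdc6, at -0.05) is lower, and 79.8% of all listed genes are higher. Levels of the 3228 tested genes without a row were not used here, and adding equal levels for them to both sums would make the shift smaller than 1.80. Salivary gland secretory and fat body markers hold 272858 and 193772 CPM of the control sum, and 258 and 1616 CPM of the tumor sum. Which scaling is nearer to equal RNA per library is unknown. Every "rose", "fell", "higher" and "lower" below, and every size of change, is on the authors' scale. Among the listed genes the median log2 fold change was -0.78, beside 0.57 over all 6156 listed genes, and the gap of -1.35 between these medians is the same under both scalings. Leaving direction aside, the median size was 1.83-fold for the replication genes and 3.12-fold for all listed genes. Sizes depend on the scaling as directions do, since the shift of 1.80 applies to every gene. A 2-fold change was reached by 8 of the 21 (38.1%), 7 of them lower and 1 higher, compared with 76.5% of all listed genes. Those 7 are 16.7% of the 42 genes and the 1 is 2.38%, beside 23.5% and 26.7% of all tested genes at least 2-fold lower and higher. None of the 21 reached 4-fold, which 39.1% of all listed genes did in the authors' deposited table.

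**Figure D1:**
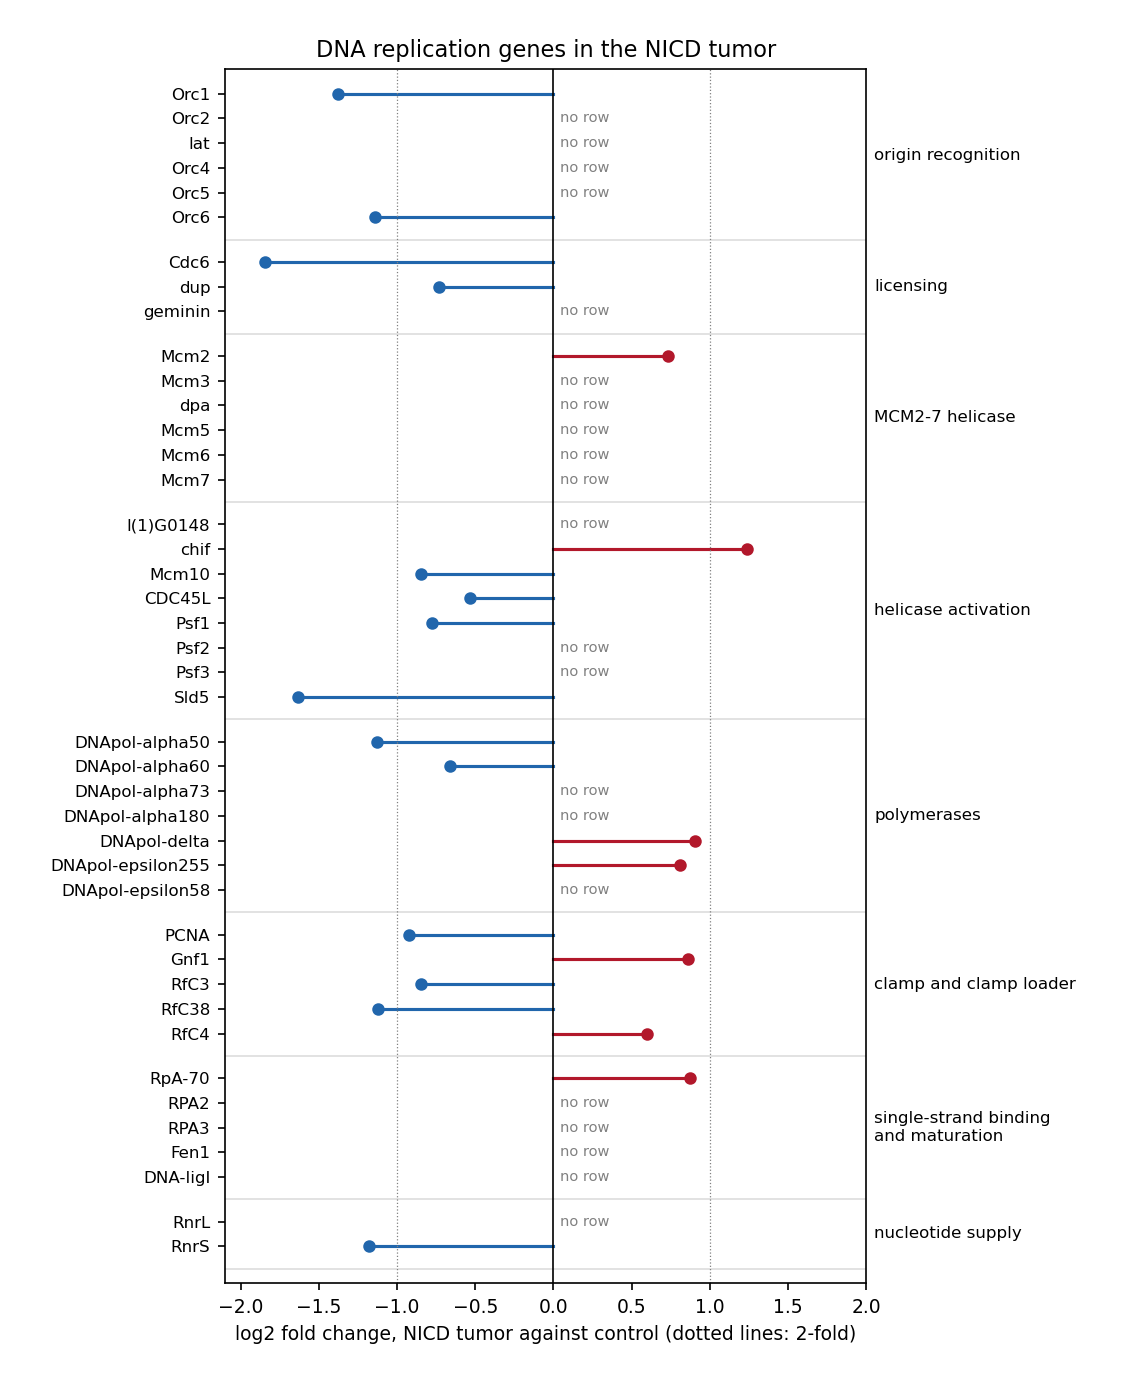
Log2 fold change of tumor against control on the authors' scale for each replication gene, grouped by role, with genes that have no row in the authors' deposited table marked as such. Points run from -1.85 (Cdc6) to 1.24 (chif), 14 to the left of 0 and 7 to the right, and 8 lie beyond the dotted 2-fold lines; equal totals of listed genes would move every point right by 1.80.

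Of 6 origin recognition genes 2 fell and 4 had no row, and of 3 licensing genes 2 fell and 1 had no row. Over all tested genes 31.6% fell and 34.0% rose. No difference in share was tested for these or the other role groups. Orc1 (FBgn0022772), an ATPase subunit of the origin recognition complex, was 2.60-fold lower by the authors' deposited table (log2 fold change -1.38, adjusted p = 0.00193). Orc6 (FBgn0023180), a further subunit of that complex, was 2.21-fold lower by the authors' deposited table (log2 fold change -1.14, adjusted p = 0.00679). Its mean level of 2.92 CPM over all libraries is the lowest among the 21 genes, so this value rests on the fewest reads. The other 4 subunits, Orc2, lat (the gene of subunit 3), Orc4 and Orc5, have no row.

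Cdc6 (FBgn0035918), the ATPase that joins the origin complex to load the helicase, showed the largest change of the 21. In the authors' deposited table it was 3.60-fold lower (log2 fold change -1.85, adjusted p = 2.02e-05), which is position 245 among the 6156 listed genes by adjusted p. Its level, estimated from the table, went from 33.9 CPM in control to 9.43 CPM in tumor. The gene lies within Zasp66, a gene on the opposite strand with a log2 fold change of -3.52 by the authors' deposited table. They share no exonic base in the reference annotation. The strand setting of the counting is not given, so reads from unspliced Zasp66 RNA could be counted on Cdc6. Their part in this value was not tested. The partner loader dup (FBgn0000996), the fly Cdt1, was 1.66-fold lower by the authors' deposited table (adjusted p = 0.00311). Both helicase loaders fell, and geminin, the gene of the Cdt1 inhibitor, has no row.

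Of the MCM2-7 helicase genes only Mcm2 was listed, and it rose. Mcm2 (FBgn0014861) was 1.66-fold higher by the authors' deposited table (log2 fold change 0.73, adjusted p = 0.0114). Mcm3, dpa (the fly Mcm4), Mcm5, Mcm6 and Mcm7, whose products form the same hexamer, have no row. Whether Mcm2 differs from these 5 was not tested.

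Among the 8 genes of helicase activation 4 fell, 1 rose and 3 had no row. For all tested genes the shares were 31.6% lower and 34.0% higher. Sld5 (FBgn0039403), a subunit of the GINS complex that holds the active helicase together, was 3.11-fold lower by the authors' deposited table (log2 fold change -1.64, adjusted p = 0.00101). A second GINS gene, Psf1 (FBgn0035194), was 1.71-fold lower by the authors' deposited table (adjusted p = 0.0229), while Psf2 and Psf3 have no row. CDC45L (FBgn0026143), whose product joins MCM and GINS in the moving helicase, was 1.45-fold lower by the authors' deposited table (adjusted p = 0.0127), the smallest change of the 21. Of the moving helicase as a whole, these 3 genes were lower, Mcm2 was higher, and the genes of its other 7 subunits have no row. Mcm10 (FBgn0032929), an initiation factor that acts on the assembled helicase, was 1.80-fold lower by the authors' deposited table (adjusted p = 0.0036).

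The gene chif (FBgn0000307) moved the other way and was the only one of the 21 to rise by 2-fold or more. It encodes the fly Dbf4, the activating partner of the Cdc7 kinase, and was 2.36-fold higher by the authors' deposited table (log2 fold change 1.24, adjusted p = 0.00737). Its estimated level went from 29.7 CPM in control to 70.2 CPM in tumor. The reference annotation places 19.5% of its exonic bases in exons of Hyls1 on the same strand, so reads there could be assigned to either gene, and Hyls1 has no row. The kinase gene itself, l(1)G0148, has no row.

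Of 7 polymerase genes 2 fell, 2 rose and 3 had no row, beside 31.6% of all tested genes that fell and 34.0% that rose. Both primase subunit genes, which make the RNA primers, fell: DNApol-alpha50 (FBgn0011762) was 2.18-fold lower by the authors' deposited table (log2 fold change -1.13, adjusted p = 0.00127). DNApol-alpha60 (FBgn0259676) was 1.58-fold lower by the authors' deposited table (adjusted p = 0.0372). Both catalytic subunits of the main strand-copying polymerases rose. DNApol-delta (FBgn0263600), which copies the lagging strand, was 1.87-fold higher by the authors' deposited table (log2 fold change 0.90, adjusted p = 0.00369). DNApol-epsilon255 (FBgn0264326), which copies the leading strand, was 1.75-fold higher by the authors' deposited table (adjusted p = 0.0282). The remaining genes, DNApol-alpha180 and DNApol-alpha73 of the primase-bound polymerase and DNApol-epsilon58, have no row.

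The clamp and its loader were the only role group in which every gene of the set was listed. PCNA (FBgn0005655), the ring that keeps polymerases on DNA, was 1.90-fold lower by the authors' deposited table (log2 fold change -0.92, adjusted p = 0.023). Its estimated level went from 59.6 CPM in control to 31.4 CPM in tumor. The loader that opens this ring was split. RfC38 (FBgn0028700) was 2.17-fold lower by the authors' deposited table (log2 fold change -1.12, adjusted p = 0.000996), with 25.2% of its exonic bases shared with Nup160 on the opposite strand, a gene that was itself higher (log2 fold change 1.09). RfC3 (FBgn0032244), another small subunit, was 1.80-fold lower by the authors' deposited table (adjusted p = 0.0209). Gnf1 (FBgn0004913), the large subunit, was 1.82-fold higher by the authors' deposited table (log2 fold change 0.86, adjusted p = 0.000717). RfC4 (FBgn0260985), a small subunit like RfC3, was listed at 1.51-fold higher by the authors' deposited table (log2 fold change 0.60), and its adjusted p of 0.0494 was the largest of the 21. Loader subunit genes of the set thus went in both directions, 2 lower and 2 higher. A further loader gene outside the set, CG8142, has no row.

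Genes acting on single strands and on nascent DNA were mostly not listed. RpA-70 (FBgn0010173), the large subunit of the complex that coats single-stranded DNA, was 1.83-fold higher by the authors' deposited table (log2 fold change 0.87, adjusted p = 0.000772). RPA2 and RPA3, the other subunits, and Fen1 and DNA-ligI, which trim and join lagging-strand fragments, have no row. RpA-70 and Mcm2, both higher, are neighbours on opposite strands with 518 bases between them in the reference annotation.

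For nucleotide supply, RnrS (FBgn0011704), the small subunit of ribonucleotide reductase, which makes deoxynucleotides, was 2.26-fold lower by the authors' deposited table (log2 fold change -1.18, adjusted p = 0.00021). Its estimated level went from 110.5 CPM in control to 48.8 CPM in tumor. The gene of the large subunit, RnrL, has no row.

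Levels differed widely among the 21 genes. Per kilobase of transcript, the estimated control level ran from 1.01 CPM for DNApol-epsilon255 to 69.4 CPM for RnrS, with PCNA next at 57.6 CPM and RpA-70 at 14.5 CPM. In tumor the same estimate was 30.6 CPM per kilobase for RnrS, 30.4 for PCNA and 26.5 for RpA-70. These 3 genes had the highest levels in both groups, and they lay closer together in tumor. Cdc6, which followed RpA-70 in control at 13.7 CPM per kilobase, was at 3.80 in tumor. Whether neighbours in this order differ beyond the spread of the samples cannot be said without values per sample. The estimates take the mean level as the average of both groups and depend on unknown scaling factors, so they are not shares of reads.

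**Figure D2:**
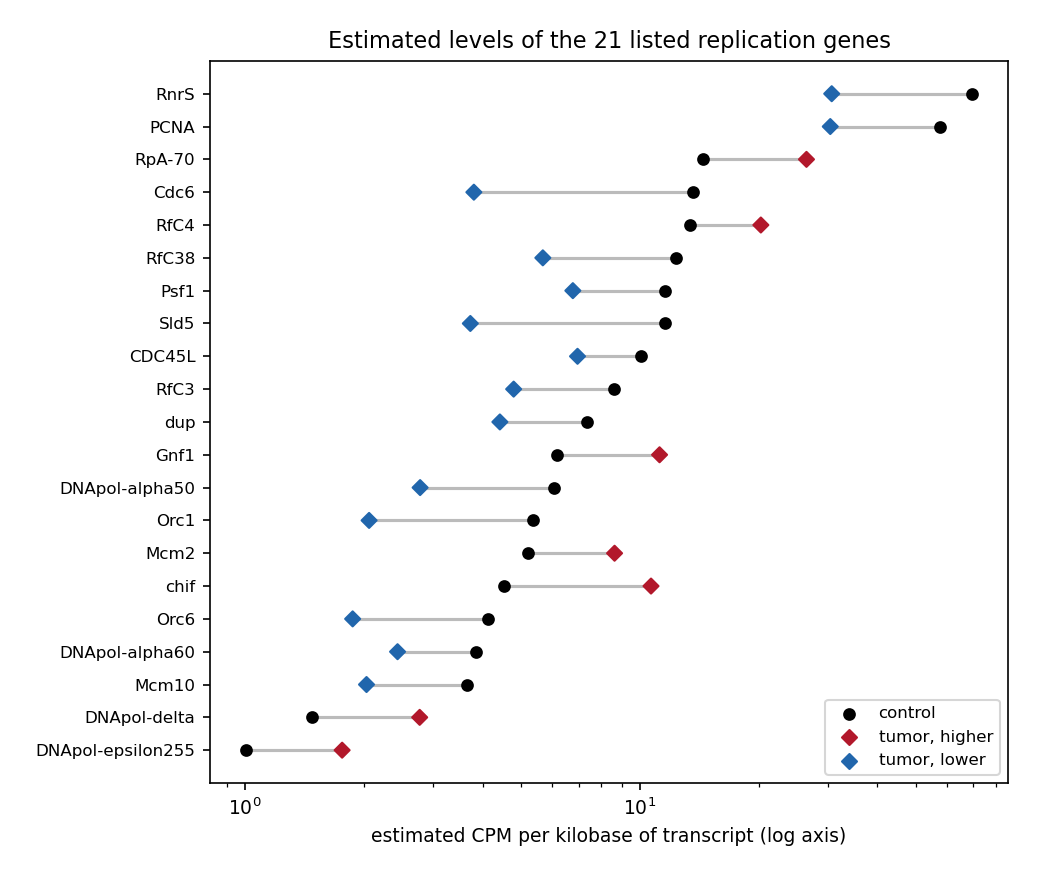
Estimated CPM per kilobase of transcript (log axis) for the 21 listed genes, with circles for control and diamonds for tumor, ordered by the control level. RnrS and PCNA stand apart at the top in control (69.4 and 57.6) and fall to 30.6 and 30.4 in tumor, where RpA-70 reaches 26.5.

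The genes that rose had a longer median coding region than those that fell, with overlapping ranges. The median longest coding length in the reference annotation was 3024 bases for the 7 that rose and 1246.5 bases for the 14 that fell, beside 2067 and 954 bases over all listed genes in the same directions. Across the 21 genes, Spearman's rho between log2 fold change and coding length was 0.53, and over the 5957 listed genes with a coding length it was 0.45. This is a correlation across genes that share the same libraries, given as a description. Exceptions lie on both sides: RfC4 rose and RfC3 fell with coding lengths of 993 and 996 bases, and Orc1 fell with 2772 bases. The part of length in these directions was not tested.

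**Figure D3:**
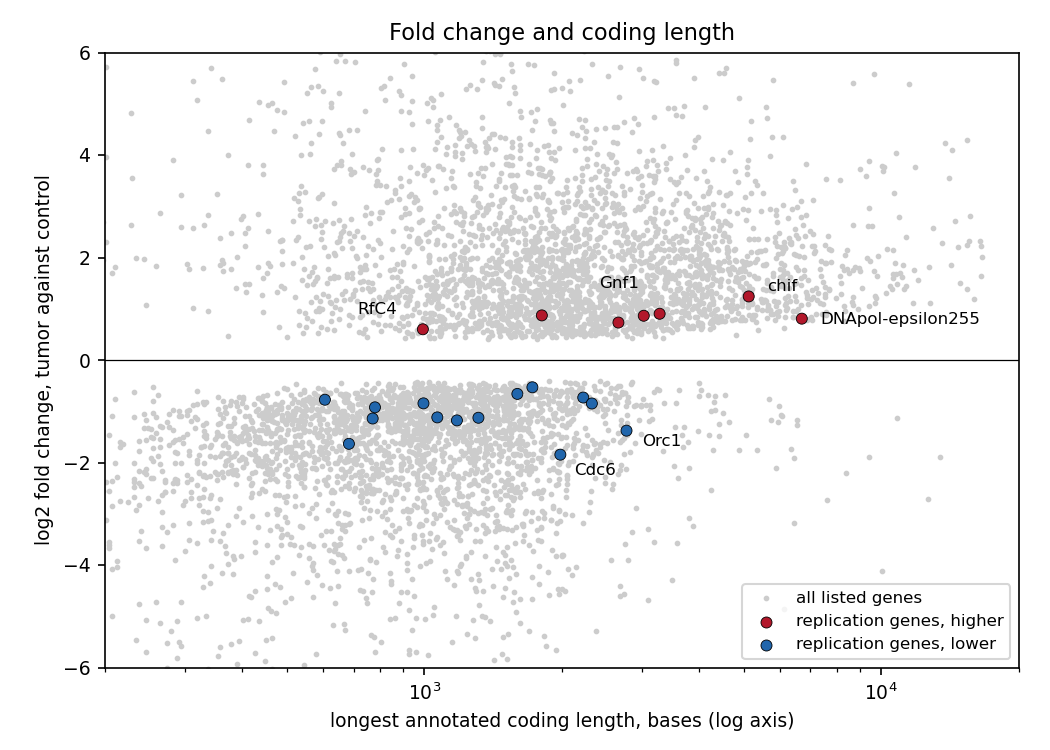
Log2 fold change on the authors' scale against longest annotated coding length (log axis) for all listed genes (grey) and the 21 replication genes (red higher, blue lower), leaving out 277 listed genes beyond the axes. Of the replication genes, those that rose run from 993 to 6708 bases and those that fell from 606 to 2772 bases, and all lie within 1.85 of 0 on the log2 scale.

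Markers of other cells moved along with these changes, and their part in the changes above was not tested. The transgene check N, the Notch gene, was 188-fold higher by the authors' deposited table (adjusted p = 1.07e-05), and reads from the transgene can be counted there. All 10 listed genes of 12 salivary gland secretory markers were lower, and summed by estimate to 272858 CPM in control against 258 CPM in tumor. Among them, the authors' deposited table gives sage, a transcription factor gene of those polyploid cells, as 45.4-fold lower (adjusted p = 7.82e-06). All 8 listed of 9 fat body markers were lower (193772 and 1616 CPM), as were 8 listed of 11 muscle markers (2874 and 339 CPM). All 10 listed of 12 hemocyte (blood cell) markers were higher (32.8 and 1697 CPM), as were 7 of 7 tracheal markers (149 and 790 CPM). Of 8 genes taken as markers of imaginal progenitors 5 were higher, 1 lower and 2 had no row. For all tested genes the shares were 34.0% higher and 31.6% lower, beside each marker count above. The progenitor list shares the gene stg with the cell cycle regulators below. The neural stem cell repressor gene dpn, a Notch target, was 39.3-fold higher by the authors' deposited table (adjusted p = 4.22e-05). Its estimated level was only 0.19 CPM in control and 7.44 CPM in tumor, so this fold rests on few control reads. No marker has a row with a value per sample, so agreement among the samples of a group is unknown.

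Genes around the replication machinery were also divided. Of 22 cell cycle regulators of G1, S and mitotic entry, 7 rose, 4 fell and 11 had no row, with a median log2 fold change of 0.60 among those listed. Over all tested genes 34.0% rose and 31.6% fell, and the median over all listed genes was 0.57. The S-phase drivers E2f1, Dp and CycE have no row, while E2f2, the repressor E2F, was 2.40-fold lower by the authors' deposited table (adjusted p = 0.000994). Cdk2, the kinase partner of cyclin E, named with its value already known, was 2.28-fold lower by the authors' deposited table (adjusted p = 0.00328). The mitotic entry gene stg, a Cdc25 phosphatase, was 10.6-fold higher by the authors' deposited table (adjusted p = 0.000223), and the cyclin gene CycA 3.38-fold higher (adjusted p = 4.06e-05). Myb, of the complex that controls cell cycle genes, was 2.73-fold higher by the authors' deposited table (adjusted p = 7.04e-05).

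Nucleotide metabolism genes moved in both directions. Of 26 such genes outside the replication set, 13 fell, 6 rose and 7 had no row, with a median log2 fold change of -1.01. Over all tested genes 31.6% fell and 34.0% rose, and the difference in share was not tested. Lower in the authors' deposited table were the purine synthesis genes ade5 and Prat2, by 7.72-fold and 11.5-fold (adjusted p = 1.26e-05 and 2.8e-05). AdenoK, an adenosine salvage kinase, was lower by the authors' deposited table (log2 fold change -2.32, adjusted p = 2.28e-05). The gene su(r), 9.80-fold lower by the authors' deposited table (adjusted p = 1.62e-05), encodes an enzyme that degrades pyrimidines and so does not supply nucleotides. Some genes went the other way. The gene r, which encodes the enzyme of the first steps of pyrimidine synthesis, was 8.56-fold higher by the authors' deposited table (adjusted p = 0.00013), and it too was named with its value already known. For deoxynucleotides, dnk, a deoxynucleoside kinase gene also chosen after its value was seen, was 3.38-fold lower by the authors' deposited table (adjusted p = 0.000461), and the thymidylate synthase gene Ts has no row.

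Accessory fork factors and chromatin assembly genes moved in both directions as well. Of 22 accessory genes 5 rose, 2 fell and 15 had no row, beside 34.0% of all tested genes that rose and 31.6% that fell. Fancd2, of the Fanconi anemia repair pathway, and mus101, the fly TopBP1, were higher in the authors' deposited table, by 3.71-fold and 2.31-fold (adjusted p = 0.000445 and 0.00388). The topoisomerase gene Top2 was 1.96-fold higher by the authors' deposited table (adjusted p = 0.00138), whereas the ribonuclease H gene rnh1 was 1.92-fold lower (adjusted p = 0.00457). Of 8 genes that handle histones at the fork, 3 rose, 2 fell and 3 had no row, beside the same shares of all tested genes. Ssrp and dre4, both subunits of the histone chaperone FACT, were higher in the authors' deposited table, by 3.00-fold and 2.80-fold (adjusted p = 0.000126 and 0.000595). Of genes named for the chromatin assembly factor CAF-1, Caf1-180 was 1.95-fold higher and Caf1-55 1.86-fold lower by the authors' deposited table (adjusted p = 0.000702 and 0.000866). Caf1-105 has no row.

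**Figure D4:**
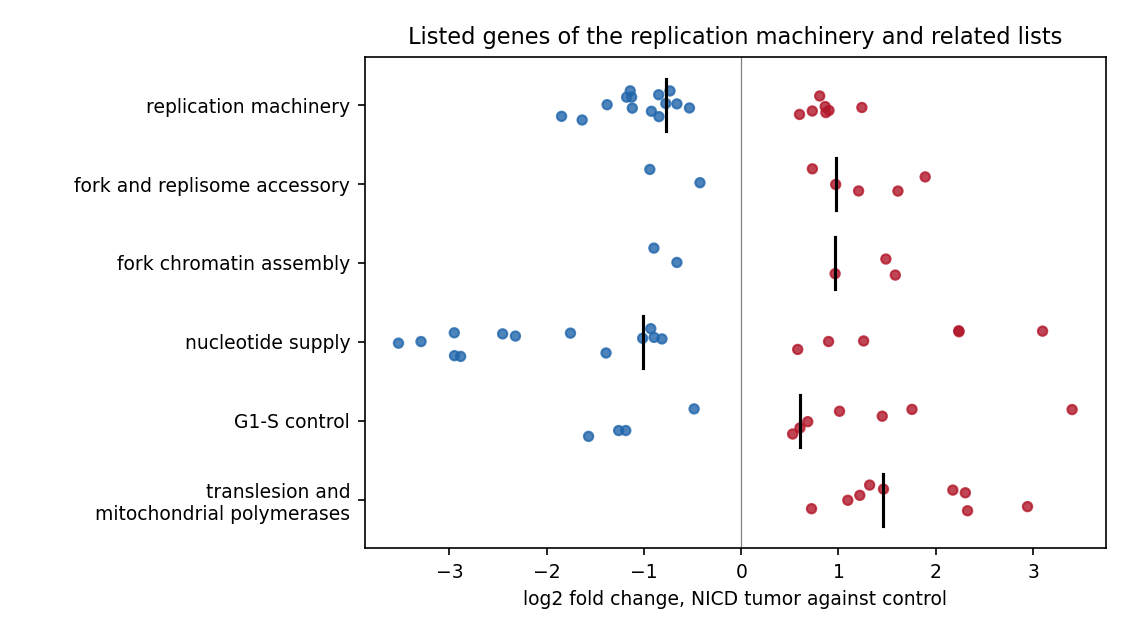
Log2 fold change on the authors' scale of the listed genes of the replication machinery and of 5 related lists, 1 point per gene, with the median as a black bar and a random vertical offset. The replication machinery has its median at -0.78 and nucleotide supply at -1.01. All 9 listed genes of the translesion and mitochondrial polymerase list, which also holds topoisomerase and helicase genes, lie to the right of 0.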

How the data were processed

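Total RNA of 3 control and 3 tumor samples was sequenced, and groups were taken from the sample titles. The submitters' processing notes name featureCounts and DESeq2 without versions. Which aligner, build, annotation, strand setting, read filter and normalization served is not given in the sources used here. Per the file headers, the authors deposited for each gene 2 log2 fold changes (shrunken and unshrunk), a p-value with its adjusted p-value, and a mean log2 CPM. These column names are those of an edgeR test against a minimum fold change, so the tool is not settled. The unshrunk value is treated as a score, because in 43 genes of the authors' deposited table it exceeds any log2 range where a group was fitted at 0. The authors' deposited sheet of calls gives 3187 higher, 2969 lower and 3228 not called under the heading "log 1.2". Which threshold this heading denotes is not spelled out.

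No test of single genes was run: calls are the authors' adjusted p below 0.05. Group CPM was estimated here by splitting each deposited mean level by its fold change, taking the mean as the average of both groups. All 21 replication genes without a row were looked up by their other names in the RefSeq table (Release 6), and 0 were found in the deposited table. Lengths and overlaps come from the BDGP6 annotation (version 54, Ensembl release 115), and no coordinates are given because the build behind the deposited values is unknown. Lengths were found for 21 of 21 replication genes. No genome or sequence table was used here, so no sequence is shown, and the planned count of promoter motifs was not made. The replication genes and lists were chosen with earlier results of these data known. Every listed replication gene is named, with up to 4 genes per related list and up to 3 per marker list by smallest adjusted p. Counting steps were tested on simulated data. Software was Python 3.11.15, pandas 2.3.3, numpy 2.4.6, scipy 1.17.1 and matplotlib 3.10.9.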

Additional observations from a re-analysis of the deposited data

How the results depend on the processing

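The 21 listed replication genes kept their counts (7 higher, 14 lower) with the unshrunk fold change, which gave a median log2 fold change of -0.78, and with directions taken relative to the median of all listed genes, where the median became -1.35. With the adjusted p below 0.01, 4 were higher and 9 lower, with a median of -1.12. At least 2-fold changes numbered 1 higher and 7 lower. Keeping genes with a mean log2 CPM over 3.06, the lower quartile, left 6 higher and 7 lower, with a median of -0.53. Matching by other gene names added none. Bringing the listed genes to equal estimated totals, added after seeing the data, gave 20 higher and 1 lower, with a median of 1.03, because it adds 1.80 to every log2 fold change. All 65 genes checked (the listed replication genes, the genes the naming rule picks and 6 named after their values were known) kept their direction with the unshrunk value, which differed by at most 0.03 on the log2 scale. The smallest log2 fold change of any listed gene was 0.41 in size, so that difference could not turn a direction or alter the counts. The unshrunk value is thus no independent check. No paired analysis was possible because the deposited columns carry no value per sample, and leaving out single samples could not be done for the same reason. Depth per library is unknown, so no counting interval is given.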

Other observations

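Genes of the translesion and mitochondrial polymerase list that had a row all rose. This list also holds topoisomerase genes, a mitochondrial DNA helicase gene and polymerase partners. Of its 11 genes, 9 rose, none fell and 2 (PolG2 and mtSSB) had no row, with a median log2 fold change of 1.46, where 34.0% of all tested genes rose. Of the 9, 8 have a coding length of at least 2000 bases, a class in which 85.5% of all listed genes were higher, and the part of length was not tested. Higher by 7.69-fold in the authors' deposited table was mus205, the catalytic subunit of translesion polymerase zeta (adjusted p = 0.000293), and DNApol-eta, another lesion-bypass polymerase, was 4.94-fold higher (adjusted p = 0.000372). The topoisomerase gene Top3alpha and tam, the mitochondrial polymerase gamma, were higher in the authors' deposited table, by 5.02-fold and 4.52-fold (adjusted p = 0.000205 and 0.000172). The median of these genes is 1.46 and that of the listed replication genes -0.78, a difference that was not tested.

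Splitting by coding length at 2000 bases, a value chosen after the data were examined, gave 5 higher and 3 lower among the 8 longer replication genes and 2 higher and 11 lower among the 13 shorter ones. Over all listed genes, 85.5% of 1872 longer and 35.8% of 4085 shorter genes were higher. The replication genes thus had a lower share higher in both classes (62.5% and 15.4%), which was not tested.

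Exons of 7 of the 21 listed replication genes share at least 1 base with another annotated gene, 6 of them with a gene on the opposite strand, and for 3 (chif, Mcm10 and RfC38) the overlap exceeds 10% of exonic bases. The strand setting of the counting is not given in the sources used here, so reads in these stretches cannot be assigned to 1 gene with certainty. Mcm10 shares 13.01% of its exonic bases with Ret, which has no row. Its neighbour 249 bases away on the opposite strand is bur, a GMP synthetase gene, which the authors' deposited table gives a log2 fold change of -0.82 beside -0.85 for Mcm10.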
